A study of Homo sapiens with 6 samples.

Results

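The 9 genes DLL3, CEACAM5, SEZ6, CD276, STEAP1, NCAM1, SSTR2, FOLH1 and PSCA encode cell-surface proteins for which antibody, T cell engager or radioligand agents have been developed in neuroendocrine prostate cancer or in other prostate cancers. They were taken by symbol from the gene tables, where each of the 9 had 1 entry among 28008 symbols. The libraries came from H660 (NCI-H660), an established human line of neuroendocrine prostate cancer, and both groups carried the same doxycycline (DOX)-inducible MUC1 shRNA in a lentiviral vector with puromycin selection. The 3 DOX-negative libraries were made from cells given 0.1% DMSO as the vehicle, and the 3 DOX-positive libraries from cells given 500 ng/ml DOX for 7 days. Total RNA of triplicate cultures was sequenced with a stranded mRNA kit, which selects poly(A) RNA, and the comparison asked which transcripts changed when MUC1 was silenced. A DOX-treated line with a non-targeting shRNA was not analysed here, so the effect of DOX itself and that of MUC1 silencing cannot be told apart, and all values come from 1 line.

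Surface antigens differ between the lineages of prostate cancer. Luminal adenocarcinoma is known for the luminal antigens FOLH1 (PSMA), STEAP1 and PSCA, whereas neuroendocrine tumours are known for DLL3, NCAM1 (CD56), SEZ6 and, in part, CEACAM5. DLL3 is an inhibitory Notch ligand that reaches the surface of neuroendocrine tumour cells. CD276 (B7-H3), an immune checkpoint protein of the B7 family, is found in both kinds of tumour. The values below are transcript levels in bulk RNA, in which fewer cells with a transcript and less of it per cell cannot be told apart, and they do not measure protein at the surface.

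MUC1, the targeted gene, was at 88.19, 90.23 and 79.58 CPM (read counts scaled to library size and composition) in the 3 DOX-negative libraries and at 36.66, 37.17 and 29.87 in the 3 DOX-positive libraries. It fell by 1.32 on the log2 scale (SE 0.096, adjusted p = 0.000173, edgeR quasi-likelihood test with Benjamini-Hochberg adjustment), and the groups did not overlap. Of the 9 surface targets, 7 had enough counts to be tested and 2 passed an adjusted p of 0.05. NCAM1 was lower and STEAP1 higher in the DOX-positive libraries. Over all 17026 tested genes, 4.87% passed in either direction, 1.96% as lower and 2.91% as higher. DLL3, at an adjusted p of 0.0536, SEZ6 and CEACAM5 did not pass, and CD276 showed the smallest difference. The median log2 change of the 7 tested targets was 0.29, and the median size without regard to sign was 0.47, beside 0.00034 and 0.13 over all tested genes. That size varied with level. It was 0.31 for tested genes averaging below 1 CPM, as STEAP1 and SSTR2 did. For genes at 10 to 100 CPM it was 0.10, and above 100 CPM 0.085, the levels of the other tested targets. The ranges of normalized CPM did not overlap between the groups for 6 of the 7 tested targets, against 28.1% of all tested genes. They overlapped for the 2 targets that were not tested.

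**Figure D1:**
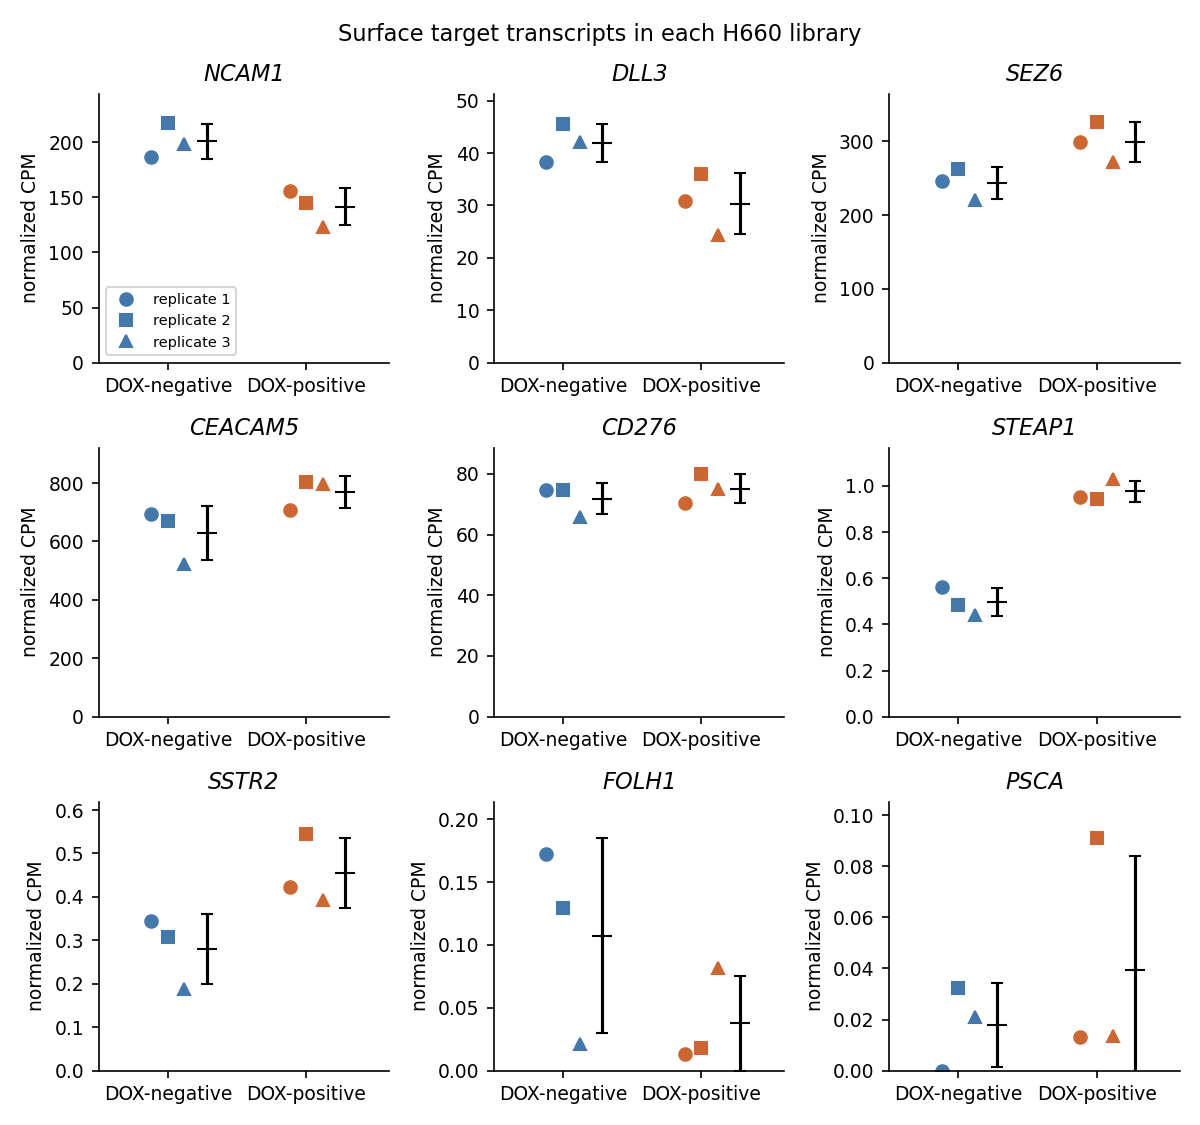
Each panel plots 1 surface target, with normalized CPM on a linear axis that starts at 0, for the 3 DOX-negative libraries (blue) and the 3 DOX-positive libraries (orange). Marker shapes give the replicate number, which is not said to pair cultures, and black bars show the mean ± SD, cut off at 0. NCAM1 and DLL3 lie lower and SEZ6, CEACAM5, STEAP1 and SSTR2 higher in all 3 DOX-positive libraries, whereas CD276, FOLH1 and PSCA overlap.

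In the GENCODE 29 annotation of GRCh38, DLL3 lies on the plus strand of chromosome 19 from 39498895 to 39508481 and CEACAM5 on the same strand from 41708585 to 41729798. SEZ6 lies on the minus strand of chromosome 17 from 28954901 to 29006440, and SSTR2 on the plus strand of that chromosome from 73165012 to 73176633. CD276 spans 73683966 to 73714518 of chromosome 15, and STEAP1 spans 90154375 to 90164829 of chromosome 7, both on the plus strand. NCAM1 is the longest of the set, from 112961247 to 113278436 on the plus strand of chromosome 11 with 30 annotated transcripts, and FOLH1 spans 49146635 to 49208670 on the minus strand of chromosome 11. Annotated genes lie opposite 4 of the 9. They are PIPOX opposite SEZ6, STEAP2-AS1 opposite STEAP1, NCAM1-AS1 and AP000802.1 opposite NCAM1 and JRK opposite PSCA, and the strand setting of the counting is not given in the sources used here. STEAP2-AS1 had 0 to 2 counts and NCAM1-AS1 had 17 to 38 counts per library, far below NCAM1 itself, which had 7979 to 13446. JRK had 3071 to 4109 counts, far above PSCA, and the part of its reads in the few PSCA counts was not tested. On the same strand, AC243967.1 overlaps 21187 bases of CEACAM5, AC097641.1 overlaps 11622 bases of SSTR2, the whole gene, and the small RNU7-187P lies inside NCAM1. These 3 and AP000802.1 had no entry under these names in the gene counts. How reads shared with them were assigned is not given in the sources used here.

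The promoters of STEAP1, the only target called higher, and of CEACAM5, the most abundant target, are shown here because each holds 1 copy of a symmetric E-box word, in capitals (CAGCTG in STEAP1 and CACGTG in CEACAM5). E-boxes, CANNTG in general, are short DNA words read by basic helix-loop-helix factors. Both are RefSeq sequences of GRCh38.p14, plus strand, from 250 bases before the start site to 50 after it, and each searched word reads the same on both strands, so that 1 strand covers both. The STEAP1 window is chr7:90154219-90154518, with a GC content of 66.7%, and the CEACAM5 window is chr19:41708376-41708675, with 53.3%.
STEAP1: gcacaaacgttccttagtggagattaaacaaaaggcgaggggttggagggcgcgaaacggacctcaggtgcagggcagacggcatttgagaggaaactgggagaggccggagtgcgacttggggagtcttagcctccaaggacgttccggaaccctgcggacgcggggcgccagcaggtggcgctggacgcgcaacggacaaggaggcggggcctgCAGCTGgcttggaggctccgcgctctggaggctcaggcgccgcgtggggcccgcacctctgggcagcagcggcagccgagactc
CEACAM5: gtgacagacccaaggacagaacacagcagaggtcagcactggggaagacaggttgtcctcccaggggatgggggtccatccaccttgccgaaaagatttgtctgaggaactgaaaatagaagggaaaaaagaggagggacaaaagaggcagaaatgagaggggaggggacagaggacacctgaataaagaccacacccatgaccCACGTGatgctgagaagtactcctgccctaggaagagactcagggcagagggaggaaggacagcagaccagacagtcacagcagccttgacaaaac
Promoter windows were given for 4 of the 9 targets. Counting every CANNTG, which takes in the words in capitals, the STEAP1 window held 4 and the CEACAM5 window 2, and none was found in those of CD276 and SSTR2. Among 35116 promoter windows of this length, 17.9% held CAGCTG, 7.3% held CACGTG and 68.7% held a CANNTG, so a match in 1 window describes these letters and nothing more.

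NCAM1 is a neural adhesion molecule of the immunoglobulin superfamily and, as CD56, a diagnostic marker of neuroendocrine tumours. It stood at 186.3, 217.3 and 198.5 CPM without DOX and at 156.0, 145.1 and 123.2 CPM with DOX. The lowest DOX-negative library exceeded the highest DOX-positive one. The mean went from 200.7 ± 15.6 CPM to 141.4 ± 16.7 CPM (SD, n = 3 each), a log2 change of -0.50 (SE 0.094, 95% interval -0.71 to -0.30, edgeR adjusted p = 0.0142). This change was within the lowest 4.38% of those of all tested genes. The call was lost without DOX-negative library 2 (adjusted p = 0.079) or DOX-negative library 3 (adjusted p = 0.082), and the log2 change across all settings tried stayed between -0.58 and -0.41. On the deposited TPM (read counts scaled to transcript length and library total), the groups overlapped, with 12.12, 14.97 and 10.57 against 12.12, 7.479 and 7.708.

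DLL3 gave a difference of similar size from fewer reads. The vehicle libraries had 38.29, 45.55 and 42.15 CPM of it and the DOX libraries 30.81, 35.91 and 24.39 CPM. Every DOX-positive value was below every DOX-negative one, although DOX-positive library 2 came close to DOX-negative library 1. The mean was 42.0 ± 3.63 CPM against 30.4 ± 5.78 CPM, with a log2 difference of -0.47 (SE 0.125, 95% interval -0.74 to -0.20, edgeR adjusted p = 0.0536). DLL3 therefore missed the threshold, which it passed in 5 of 19 other settings, and its adjusted p ranged from 0.004597 to 1 over them. Without DOX-positive library 2 the log2 change was -0.60 with an adjusted p of 0.0256. In TPM, where the groups overlapped, DLL3 averaged 10.0 ± 1.76 and 7.33 ± 1.67.

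SEZ6, a neuronal transmembrane protein with CUB and sushi domains, differed in the other direction from NCAM1 and DLL3. It measured 246.0, 262.9 and 220.3 CPM under vehicle and 299.3, 326.1 and 271.4 CPM under DOX. The ranges did not meet, and library 3 was the lowest of each group. The mean was 243.0 ± 21.4 CPM against 298.9 ± 27.4 CPM, with a log2 difference of 0.30 (SE 0.089, 95% interval 0.10 to 0.49, edgeR adjusted p = 0.0769), which did not pass and which passed in 4 of 19 other settings. PIPOX, on the opposite strand, had 22.1 and 24.0 CPM in the groups, with a log2 difference of 0.12 (adjusted p = 0.57).

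CEACAM5, a GPI-anchored adhesion protein of epithelia, had the highest transcript level of the set. Its values were 693.9, 670.8 and 523.7 CPM without DOX, and 708.3, 805.0 and 796.0 CPM with it. DOX-negative library 3 stood below the other two of its group, and the gap between the groups was small. The mean was 629.4 ± 92.3 CPM against 769.7 ± 53.4 CPM, a log2 difference of 0.29 (SE 0.104, 95% interval 0.064 to 0.52, edgeR adjusted p = 0.133), and CEACAM5 passed in 0 of 19 other settings.

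CD276 overlapped between the groups. Its values were 74.86, 74.84 and 65.97 CPM without DOX and 70.49, 79.96 and 74.95 CPM with DOX. The log2 difference was 0.063 with a 95% interval of -0.11 to 0.24 (edgeR adjusted p = 0.71), so a change of the size fitted for NCAM1 or STEAP1 lay outside this interval.

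**Figure D2:**
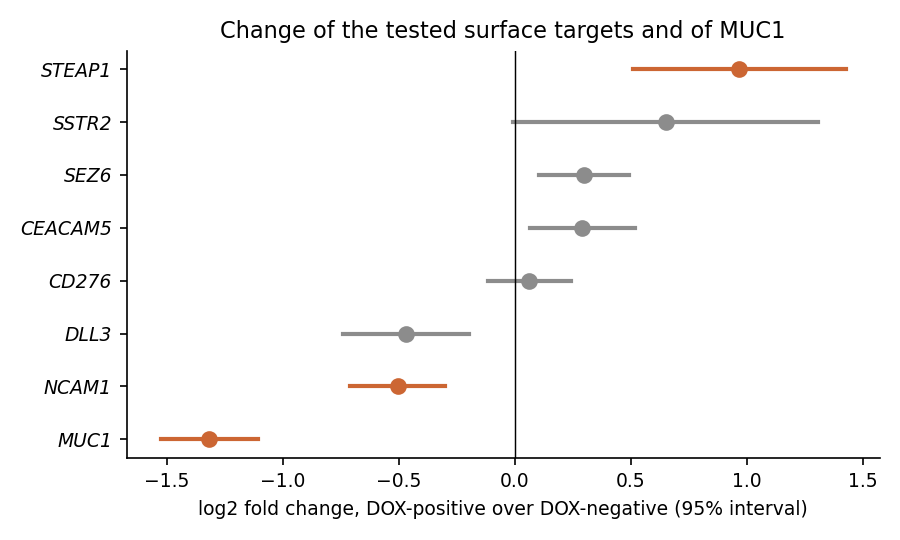
Points give the log2 fold change, DOX-positive over DOX-negative, from the edgeR fit for the 7 tested targets and for MUC1, and lines its 95% interval; orange marks an adjusted p below 0.05. STEAP1 (0.97) and NCAM1 (-0.50) are the orange targets, and the interval of CD276 (-0.11 to 0.24) spans 0.

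STEAP1, a multi-pass membrane protein related to metalloreductases and a target of T cell engagers in prostate cancer, changed by the largest factor among the tested targets but from a low level. It was counted 36, 30 and 21 times in the DOX-negative libraries and 72, 52 and 76 times in the DOX-positive libraries. Scaled for depth, these were 0.5633, 0.4849 and 0.4411 CPM against 0.9525, 0.9456 and 1.031 CPM. All 3 DOX-positive values stood well above the DOX-negative ones, and both groups were tight. The mean went from 0.496 ± 0.062 to 0.976 ± 0.047 CPM, a log2 change of 0.97 or 1.95-fold (SE 0.211, 95% interval 0.51 to 1.42, edgeR adjusted p = 0.0254). The change was within the highest 0.946% of all tested genes. Among the 2770 tested genes below 1 CPM, 1.48% were called higher and the median log2 change was -0.045. The call was lost without DOX-negative library 2 (adjusted p = 0.113), DOX-negative library 3 (0.115) or DOX-positive library 3 (0.0753), and it cannot be made when at least 1 CPM in 3 libraries is required, since STEAP1 then leaves the test.

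SSTR2, the somatostatin receptor that binds octreotide-based radioligands, was scarcer still. It had 22, 19 and 9 counts in the DOX-negative libraries and 32, 30 and 29 counts in the DOX-positive libraries. In CPM these were 0.3443, 0.3071 and 0.189 against 0.4234, 0.5455 and 0.3933, without overlap. The log2 difference of 0.65 (SE 0.30, 95% interval -0.0075 to 1.31, edgeR adjusted p = 0.243) did not pass.

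FOLH1, the folate hydrolase known as PSMA, was counted 11, 8 and 1 times in the DOX-negative libraries and 1, 1 and 6 times in the DOX-positive libraries. DOX-negative library 3 was as low as the lowest DOX-positive ones, so the groups overlapped. FOLH1 did not reach the count filter. The summed counts were 20 and 8, a rate ratio of 0.338 with an exact 95% interval of 0.129 to 0.800 that covers counting error only, and the exact two-sided permutation test over libraries gave p = 0.2. PSCA, a GPI-anchored protein of the Ly6 family, had 0, 2 and 1 counts against 1, 5 and 1 counts. A count of 0 allows up to 3 counts, or 0.0397 to 0.063 CPM per library, and both group means lay at or under this limit, so no change in PSCA was detectable at this depth. For each of the 6 targets without overlap, the exact two-sided permutation test over the 6 libraries gave p = 0.1, the smallest value that 3 against 3 libraries allow.

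**Figure D3:**
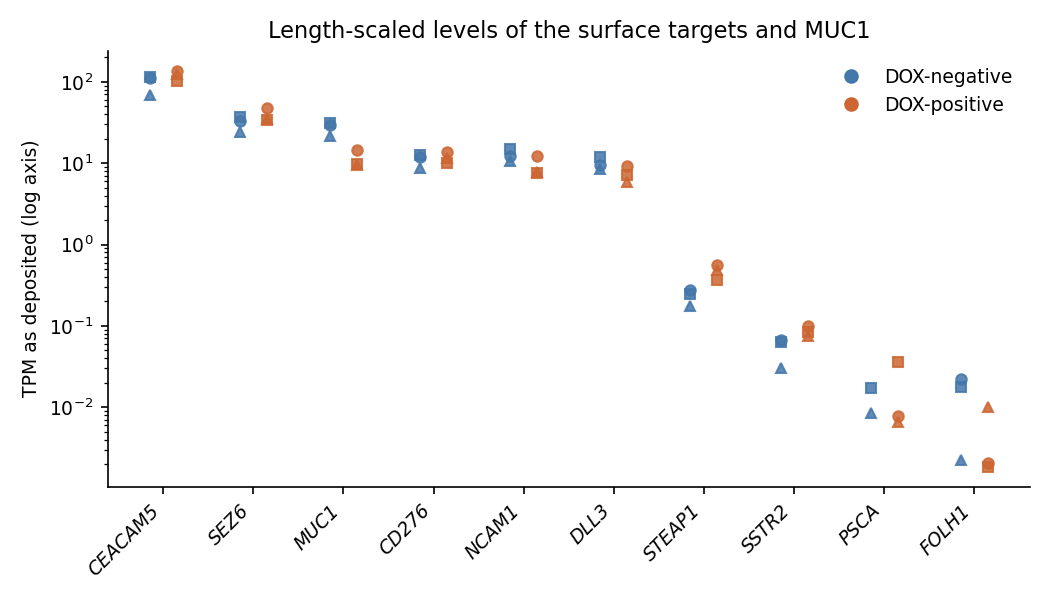
The 9 targets and MUC1 are ordered by level from left to right, with the deposited TPM of each library on a log axis, DOX-negative in blue and DOX-positive in orange; shapes give the replicate number as in the CPM panels. CEACAM5 lies near 100 TPM, SEZ6 above 20, CD276, NCAM1 and DLL3 close to 10 and STEAP1 to FOLH1 below 1; the value of 0 for PSCA in DOX-negative library 1 cannot be drawn.

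Compared per length, the targets fell into an abundant and a scarce group. In TPM, CEACAM5 averaged 99.3 ± 25.7 in DOX-negative and 121.9 ± 17.1 in DOX-positive libraries, at percentile 98.7 to 99.1 of all genes in the 6 libraries. SEZ6 followed at 31.05 ± 6.61 and 38.63 ± 7.47 TPM, and its ranges met neither those of CEACAM5 nor those of CD276. CD276, NCAM1 and DLL3 came next. In DOX-negative libraries their order was NCAM1, CD276 and DLL3 and in DOX-positive libraries CD276, NCAM1 and DLL3, and across libraries CD276 overlapped NCAM1 and NCAM1 overlapped DLL3 in both groups. Within each group, all libraries shared the order of that group. CD276 over NCAM1 was 0.9924, 0.8504 and 0.8207 without DOX and 1.116, 1.361 and 1.502 with DOX, so CD276 and NCAM1 changed places between the groups. NCAM1 over DLL3 was above 1 in all 6 libraries. STEAP1 was between 0.1752 and 0.5523 TPM in the 6 libraries. FOLH1 and PSCA were at the bottom and overlapped each other. The luminal antigens STEAP1, FOLH1 and PSCA were thus all below 1 in each library on the deposited TPM, a limit that depends on the scale. With TPM rescaled to protein-coding genes, STEAP1 was at 1.631, 1.404 and 1.331 without DOX and at 2.811, 2.689 and 3.03 with DOX. FOLH1 and PSCA stayed below 1 on that scale too.

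CEACAM5 alone made up 57.3% to 62.9% of the summed TPM of the 9 targets in the DOX-negative libraries and 62.5% to 67.4% in the DOX-positive libraries. The share of NCAM1 was 6.76% to 8.7% without DOX and 4.18% to 5.5% with DOX. DLL3 took 5.29% to 7.04% and 3.15% to 4.33%. The shares of NCAM1 and DLL3 did not overlap between the groups. Nor did those of CD276 (6.62% to 7.14% without DOX, 6.14% to 6.27% with DOX), STEAP1 (0.13% to 0.153%, 0.223% to 0.261%) and SSTR2 (0.0249% to 0.0376%, 0.0401% to 0.0519%). Each share also depends on the level of CEACAM5, the largest part of the sum.

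The ratio of a pair of targets within a library does not depend on how that library was scaled. Of the 10 ratios among the 5 abundant targets, 8 did not overlap between the groups. The share among ratios of other gene pairs was not computed. NCAM1, DLL3, SEZ6 and CEACAM5 each already differed without overlap in CPM, so these ratios are not results apart from those. SEZ6 exceeded DLL3 in TPM by a factor of 3.10 ± 0.32 in DOX-negative and 5.32 ± 0.56 in DOX-positive libraries. CEACAM5 exceeded DLL3 by 9.90 ± 1.88 and 17.1 ± 3.77. CEACAM5 exceeded NCAM1 by 7.87 ± 1.36 and 13.8 ± 2.40. The overlapping ratios were those within the lower pair and within the higher pair. NCAM1 over DLL3 was 1.255 ± 0.021 without DOX and 1.238 ± 0.154 with it, and CEACAM5 over SEZ6 was 3.18 ± 0.28 and 3.19 ± 0.37. CD276 was 1.12 ± 0.13 times DLL3 in DOX-negative and 1.64 ± 0.31 times DLL3 in DOX-positive libraries. Against the silenced gene, CEACAM5 stood at 3.59 ± 0.32 times MUC1 without DOX and at 11.1 ± 1.84 times MUC1 with DOX.

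The deposited TPM and the scaled counts differed in how far libraries of 1 group lay apart. RN7SK and SNORD3A, non-coding RNAs known to lack a poly(A) tail and so at odds with the stated poly(A) selection, held a large part of the TPM, with RN7SK at 21.18% to 27.13% and SNORD3A at 18.62% to 34.52% per library, the highest in DOX-negative library 3. The TPM of every target is relative to a total that includes them. The summed TPM of the 9 targets ran from 121.5 in DOX-negative library 3 to 220.2 in DOX-positive library 1. After TPM was rescaled to protein-coding genes, the groups no longer overlapped for NCAM1 (78.95 ± 6.13 against 55.17 ± 6.59), DLL3 (62.96 ± 5.64 against 45.06 ± 7.86), SEZ6 (194 ± 13.1 against 236.7 ± 17.9) or CEACAM5, and STEAP1 did not overlap on either scale. Tests on the deposited TPM called 0 of the targets, and the fit on rescaled TPM called 2, STEAP1 and NCAM1. STEAP1 was not tested in the deposited-TPM fits that required a mean TPM of at least 1, a minimum it met after rescaling.

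**Figure D4:**
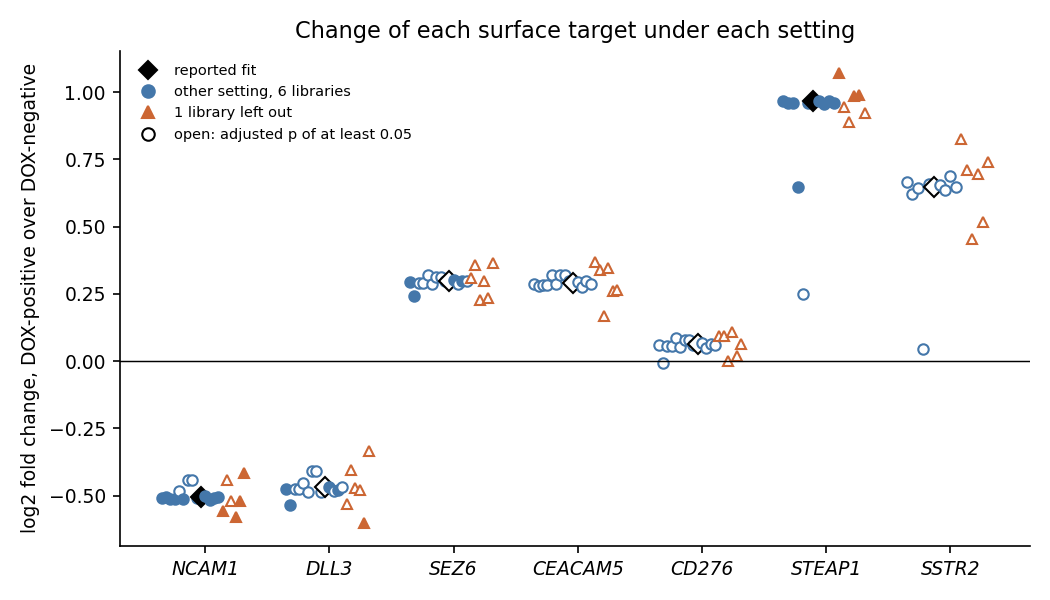
For each tested target the log2 fold change, DOX-positive over DOX-negative, is drawn under the reported fit (black diamond), under other settings with 6 libraries (blue circles) and with 1 library left out (orange triangles); filled symbols have an adjusted p below 0.05. NCAM1 stays between -0.58 and -0.41, STEAP1 between 0.25 and 1.07, and of the targets only CD276 crosses 0. In fits on counts STEAP1 stays between 0.89 and 1.07. Its lower values, 0.25 and 0.65, are differences of log2(TPM + 1), which the added 1 makes smaller at this low level.

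Across the 6 libraries, log2(CPM + 0.5) of NCAM1 and DLL3 moved together with a Pearson r of 0.931, and NCAM1 and STEAP1 oppositely with -0.939. The offset of 0.5 is close to the level of STEAP1 itself (0.4411 to 1.031 CPM), and it also entered the matches below. These are descriptions over 6 libraries that share the group difference. Over 14586 candidate genes, those averaging 50 counts or more, TES, which encodes a LIM-domain adhesion protein, was nearest to STEAP1 in pattern, with r = 0.9987 and 54.2 CPM without DOX against 69.1 CPM with DOX. ITPKA, an inositol trisphosphate kinase gene, came next with r = 0.9954. RAB3A, a synaptic vesicle GTPase gene, was nearest to NCAM1 with r = 0.9978, at 8.19 CPM against 6.12 CPM, followed by COL8A2, a collagen gene, with r = 0.9968.

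Relatives of the 9 targets were taken from lists of their gene families. Of 63 listed relatives, 40 were tested, 1 was called higher and 0 were called lower, with a median log2 change of 0.13. Over all tested genes, 2.91% were called higher and 1.96% lower. SSTR1, another somatostatin receptor gene, was the one called. It was at 5.054, 4.138 and 4.159 CPM without DOX and at 6.708, 6.946 and 8.029 CPM with DOX, a log2 change of 0.70 (SE 0.125, edgeR adjusted p = 0.0123). SSTR5, in the same list, had a log2 difference of 0.62 (adjusted p = 0.0696). All 10 genes listed beside DLL3, the Notch ligands and related DLK genes together with the 4 Notch receptors, were tested, 0 passed, and their median was 0.037. None of the 6 tested CEACAM genes passed, and their median was -0.073. CEACAM6, an adhesion protein close to CEACAM5 in sequence, was more abundant than CEACAM5, at 208.2 ± 48.8 TPM without DOX and 252.4 ± 49.5 TPM with DOX, with a log2 difference of 0.26 (edgeR adjusted p = 0.166). Reads of these related family members could be split between them in the counting, which was not tested. SEZ6L2 was at 47.3 and 48.8 TPM, above SEZ6, and SEZ6L differed by -0.26 on the log2 scale (adjusted p = 0.079). In the B7 family of CD276, 0 of 6 tested genes passed, with a median of 0.30. In the NCAM and L1 adhesion list 0 of 6 tested genes passed, and NCAM2 had no counts. The STEAP list had 2 tested genes, the FOLH1 list 1 and the Ly6 list 4, and 0 of these passed. Some uncalled relatives had a lower edgeR adjusted p than SEZ6L, and all of these differed upward. They were NCR3LG1 (log2 difference 0.45, adjusted p = 0.058), CEACAM1 (0.45, 0.063), LYPD3 (0.87, 0.065), SSTR5 and DLK1 (0.44, 0.072).

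Among 49 other surface antigens of antibody or radioligand agents, 35 were tested. Of these, 5 were called higher and 2 lower, with a median log2 change of 0.031. Over all tested genes, 2.91% were called higher and 1.96% lower. The list was chosen with earlier results of these data known, so its count is a description only. NECTIN4, the adhesion protein targeted by enfortumab vedotin, was at 5.633, 4.445 and 3.528 CPM under vehicle and at 6.999, 8.001 and 11.01 CPM under DOX. The groups did not overlap, and the mean rose from 4.54 ± 1.05 to 8.67 ± 2.09 CPM (log2 change 0.93, SE 0.19, edgeR adjusted p = 0.0207). EPHA2, an ephrin receptor kinase gene, rose from 9.24 ± 0.93 to 16.05 ± 3.03 CPM (log2 change 0.79, adjusted p = 0.0105). F3, the tissue factor gene, rose from 2.31 ± 0.31 to 3.84 ± 0.46 CPM (log2 change 0.72, adjusted p = 0.0204). The genes called beside these 3, named after their values were seen, were ROR1 (0.70) and SLC34A2 (0.55) as higher, and CD46 (-0.39) and KIT (-0.33) as lower.

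**Figure D5:**
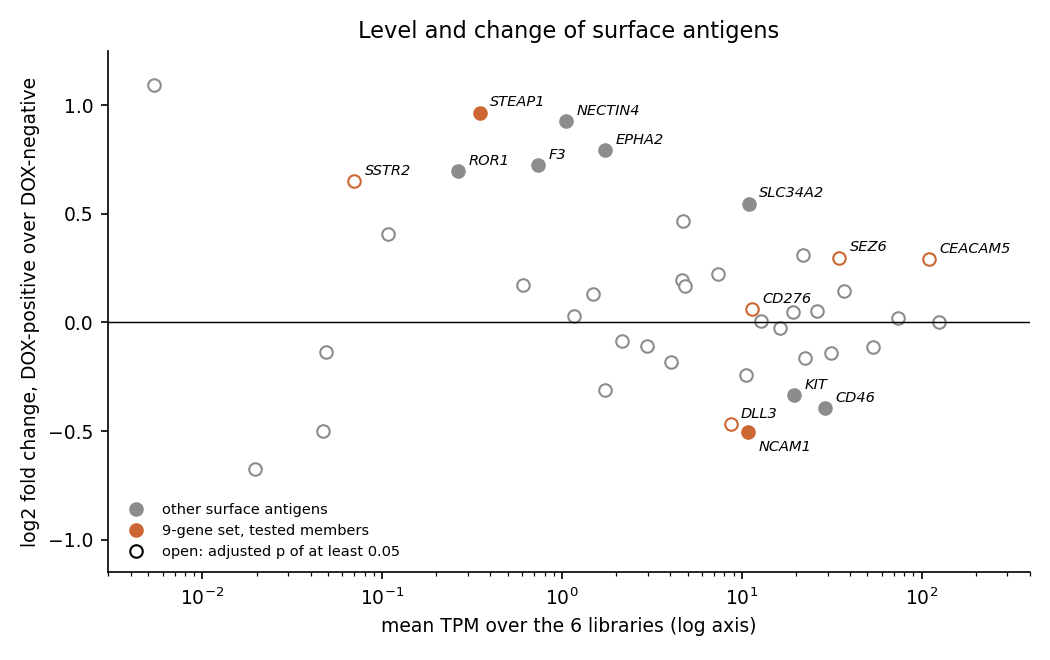
Each tested antigen counted in the text is a point, with its mean TPM over the 6 libraries on a log axis and its log2 fold change, DOX-positive over DOX-negative; orange marks the 7 tested targets, grey the other antigens and filled symbols an adjusted p below 0.05. NECTIN4 (0.93) and EPHA2 (0.79) have the largest rises among the drawn antigens above 1 TPM, and NCAM1 and DLL3 lie beside KIT and CD46 on the lower side.

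Of 16 listed lineage and Notch output regulators, 15 were tested, 1 was called higher and 2 lower. The shares over all tested genes were 2.91% higher and 1.96% lower. This list, too, was chosen with earlier results of these data known. HES1, a Notch-responsive repressor, rose from 20.1 ± 1.11 to 27.96 ± 2.29 CPM (log2 change 0.48, SE 0.091, edgeR adjusted p = 0.0153). INSM1, a zinc finger factor of neuroendocrine cells, went from 111.9 ± 8.21 to 81.8 ± 13.3 CPM (log2 change -0.45, adjusted p = 0.0389). NKX2-1 went from 356.3 ± 26.0 to 267.5 ± 42.1 CPM (log2 change -0.41, adjusted p = 0.0494).

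The libraries held 47620696 to 74061121 counts, with composition factors of 0.9668 to 1.027, and an estimated biological coefficient of variation of 9.575%. All 8 neuroendocrine markers were above 1 TPM and 0 were called, with a summed level of 97.9 to 143.2 TPM without DOX and 100.4 to 160.4 with DOX. KLK3 had no counts, and the 8 luminal markers summed to 4.13 to 5.85 and 5.08 to 7.60 TPM, with 5 tested and 1, ACPP, called higher. Some markers of other cell types were counted more often than STEAP1. Beside the calls below, 2.91% of all tested genes were called higher and 1.96% lower. Of 8 fibroblast markers 3 were tested and 2 called higher, COL1A1 (347 to 961 counts, log2 change 0.60) and LUM (1.06), while COL1A2 (502 to 1330 counts) had a log2 difference of -0.71 that did not pass (edgeR adjusted p = 0.204), with sums of 2.41 to 3.47 and 2.46 to 3.64 TPM and COL3A1 and THY1 at 0. Of 6 leukocyte markers 2 were tested and 1 (CD68) called higher, with sums of 0.705 to 1.02 and 1.02 to 1.32 TPM and CD3E at 0. Of 4 endothelial markers 3 were tested and 2 called higher, CDH5 (98 to 336 counts, log2 change 0.94) and VWF (67 to 230 counts, 0.97), while KDR had a log2 difference of -0.74 that did not pass (edgeR adjusted p = 0.437), with sums of 0.372 to 0.574 and 0.742 to 0.897 TPM. The part of these genes in the result for STEAP1 was not tested.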

How the data were processed

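Groups were taken from the sample labels. The authors deposited counts per gene and TPM per gene for the 6 libraries, and the submitters' processing notes name STAR, GRCh38 and DESeq2. The counting tool and its strand setting are not given in the sources used here. From the deposited counts, edgeR 4.0.16 in R 4.3.3 fitted a robust quasi-likelihood model after its filter for low expression and TMM scaling, with two-sided tests and Benjamini-Hochberg adjustment over 17026 genes, and a call is an adjusted p below 0.05. Replicates are named as triplicate cultures. Their p-values measure only the spread between these libraries. limma 3.58.1 and DESeq2 1.42.0 served as alternatives. The deposited TPM values, scaled by the authors to transcript length, were used for levels between genes. Exact intervals and the 3-count limit cover counting error only. All 9 targets are named. From each list the up to 3 called genes with the largest change are named, and for each called target the 2 genes nearest in pattern. Uncalled genes named beside these, such as SSTR5, CEACAM6, SEZ6L, SEZ6L2, COL1A2 and KDR, fall outside this rule. The targets and lists were chosen with earlier results of these data known. Of the 28008 symbols, 25658 matched the RefSeq table. Of 3 lists, 1 gene each is not reported here and was left out of that list's counts.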

Additional observations from a re-analysis of the deposited data

How the results depend on the processing

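Of the 9 targets, 2 were called in the reported fit, and the number was also 2 with other count scalings, voom and TPM rescaled to protein-coding genes. It was 4 (DLL3, SEZ6, STEAP1 and NCAM1) with DESeq2, with no count filter and with GC and length trends removed, 1 (NCAM1) with at least 1 CPM in 3 libraries, and 0 on log2(TPM + 1) or log2(TPM + 0.1) with a TPM minimum and on log2(TPM + 1) without one. The TPM minimum, a mean of 1, took STEAP1 and SSTR2 out of the deposited-TPM fits that used it. Leaving out 1 library gave 0 to 3 called targets, 0 without DOX-negative library 2 or 3. Over all genes, 829 were called, against 1355 with DESeq2, 2053 with GC and length trends removed, 486 on TPM rescaled to protein-coding genes, 30, 35 and 0 on deposited TPM (limma, log2(TPM + 1) and log2(TPM + 0.1) with a minimum, then log2(TPM + 1) without; 1248 at an unadjusted p under 0.05 in the last), and 58 to 1035 with 1 library left out, the lowest without DOX-negative library 3. The rescaled TPM and the removal of GC and length trends were chosen after seeing the data. CD276 reversed to -0.0081 with GC and length trends removed and ran from -4.133e-05 (without DOX-negative library 3) to 0.1076 (without DOX-positive library 1) with 1 library left out. The replicate numbers are not said to pair the cultures. Deviations from the group mean in libraries of the same number correlated at -0.565, 0.0222 and -0.0774, which with 3 libraries per group cannot settle whether they do. With a replicate block 4 targets and 998 genes were called. The causes of these shifts were not tested. STEAP1, SSTR2, FOLH1 and PSCA are limited by counts below 100 per library.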
